A study of Homo sapiens with 4 samples.

Results

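CD4 lies on the short arm of chromosome 12 among genes that are packed closely together, and its transcript was far less abundant in imatinib-resistant TF1-BAR cells than in the imatinib-sensitive TF1-BA cells. The RNA of CD4 and of 9 genes around it, COPS7A, MLF2, PTMS, LAG3, GPR162, P3H3, GNB3, CDCA3 and USP5, was compared between both cell lines to see whether the lower level was shared along the chromosome. These are 10 of the 32673 genes listed for the study. CD4 was chosen by its fall in these same libraries, so its values are given as a description with no test. The 9 neighbours are a given set of genes on both sides of CD4, chosen with earlier results of these data known, and not every gene nearby: TPI1, behind USP5, is nearer to CD4 than COPS7A and is described with the wider region. Of the 9, 8 were expressed highly enough to be tested. The ninth, LAG3, was below the minimum of 0.5 FPKM (a fragment number divided by transcript length and by library size) averaged over all libraries.

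TF1 is a human erythroleukaemia cell line that depends on granulocyte-macrophage colony-stimulating factor (GM-CSF). TF1-BA cells carry BCR-ABL, the fusion kinase of chronic myeloid leukaemia, delivered by a retrovirus, and TF1-BAR cells came from them by continuous culture with imatinib, which blocks that kinase. Both lines were grown with GM-CSF, given in the labels as 2 ng/ml and at a higher dose in the study's methods, and the culture of TF1-BAR cells had 2 µM imatinib added. There were 2 libraries from each line, and the resistant libraries also carry the title VECTOR, which the labels do not explain. The resistant cells are 1 line, so resistance, imatinib in the medium and any other property of that line cannot be told apart here. The libraries held 15465497 to 18042299 fragments. The labels do not say that replicates were separate cultures, so the p-values measure the spread between these libraries, which may be technical.

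CD4 is a transmembrane protein of the immunoglobulin superfamily that binds class II major histocompatibility molecules beside the T cell receptor, brings the kinase LCK to that receptor and serves as the entry receptor of human immunodeficiency virus. It marks helper T cells, and in humans monocytes, macrophages and some leukaemia cells of the myeloid lineage also carry it. LAG3, an inhibitory receptor of activated T cells, is its closest relative and lies next to it on the same strand. The other neighbours are not known for a role in T cell recognition.

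In the GRCh38 positions of the deposited table, the 10 genes spanned 142.9 kb of chromosome 12, from COPS7A at chr12:6723741-6731875 to USP5 at chr12:6852128-6866632. Another 1 gene of the table, the long noncoding RNA AC125494.2, lies between them. CD4 itself is at chr12:6786858-6820808 on the plus strand. LAG3 ends 8402 bases before CD4 starts, and GPR162 starts 736 bases after CD4 ends. P3H3 and GNB3 are separated by 102 bases. MLF2 and CDCA3 are on the minus strand, and the other 8 genes are on the plus strand. Within the set, 3 pairs overlap: MLF2 and PTMS by 1960 bases on opposite strands, GPR162 and P3H3 by 1563 bases on the same strand, and GNB3 and CDCA3 by 2601 bases on opposite strands. Whether the reads were counted by strand is not given in the sources used here, so the levels in these pairs can hold fragments of the partner.

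Promoter sequence from RefSeq (GRCh38.p14) was at hand for 5 of the 10 genes, with 7 start sites, and was not at hand for CD4, LAG3, PTMS, GPR162 and GNB3. The window was the 250 bases before each start. Sequences are shown for COPS7A, the neighbour with the largest difference between the lines, and for USP5, which lies head to head with CDCA3, 61 bases apart by their listed spans. The COPS7A window is chr12:6723796-6724045 on the plus strand, with the letters CGGAAG, the core of an Ets factor motif, in capitals. The USP5 window is chr12:6851900-6852149 on the plus strand, with the letters GGGCGG or their reverse complement, a GC box, in capitals.
COPS7A: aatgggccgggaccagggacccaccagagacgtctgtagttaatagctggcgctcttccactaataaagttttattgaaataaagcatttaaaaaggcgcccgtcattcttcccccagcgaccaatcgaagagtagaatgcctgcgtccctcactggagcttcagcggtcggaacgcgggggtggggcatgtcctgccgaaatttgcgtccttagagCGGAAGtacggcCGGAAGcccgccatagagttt
USP5: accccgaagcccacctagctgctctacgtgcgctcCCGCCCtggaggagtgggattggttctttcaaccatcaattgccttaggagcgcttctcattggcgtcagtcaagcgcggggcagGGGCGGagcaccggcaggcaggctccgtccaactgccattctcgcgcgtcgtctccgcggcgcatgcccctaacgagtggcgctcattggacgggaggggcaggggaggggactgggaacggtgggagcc

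CGGAAG occurred 2 times in this COPS7A window, 0 times in the window of the other COPS7A start and in 16.5% of all 35114 windows of the same length, both strands searched. GGGCGG occurred 2 times in the USP5 window and in 42.6% of all windows. The USP5 window also held CCAAT 3 times, a motif in 32.0% of all windows. TGTGGT, the core of the RUNX motif, was in none of the 7 windows and in 11.0% of all windows. The GC content of the 7 windows ran from 54.0% to 72.0% beside a median of 58.0% over all windows. They held 5 to 28 CpG dinucleotides, where all windows had a median of 11. A match of letters is a description of the window and not evidence of binding.

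CD4 was at 26.6 and 25.8 FPKM in the TF1-BA libraries and at 1.05 and 1.19 FPKM in the TF1-BAR libraries. These levels rested on 2196 and 1826 fragments in TF1-BA cells and on 76 and 88 in TF1-BAR cells. Both sensitive libraries were far above both resistant ones, and replicates of each line lay close together. The mean fell from 26.2 ± 0.562 to 1.12 ± 0.101 FPKM (SD, n = 2), 23.3 times lower in TF1-BAR cells. On the scale of log2(FPKM + 0.5), which understates changes of low genes, the difference was -4.04, the lowest but 1 of 15519 genes tested. That rank depends on the 0.5 added. By the ratio of mean FPKM, the haemoglobin gene HBB, among others, fell further, being 73.1 times lower in TF1-BAR cells. In the order of levels, CD4 stood at the 89.6th percentile of tested genes in TF1-BA cells and at the 17.0th in TF1-BAR cells. CD4 RNA was therefore reduced but still detected in the resistant line. Fewer cells with CD4 RNA and less CD4 RNA in each cell cannot be told apart in bulk RNA.

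**Figure D1:**
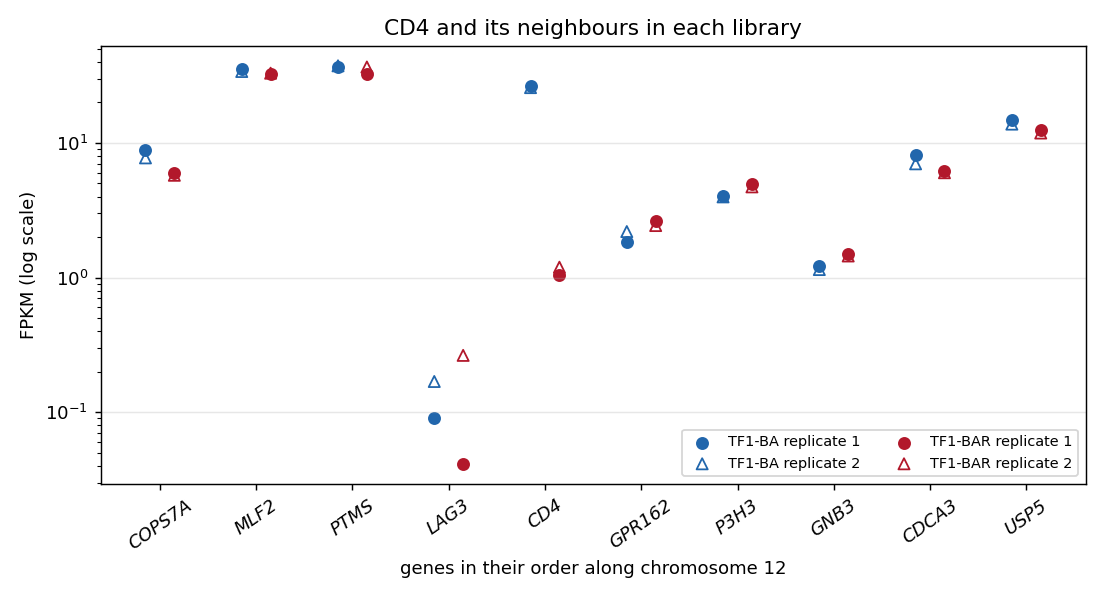
FPKM (log scale) of the 10 genes in their order along chromosome 12, 1 point for each library, with TF1-BA in blue and TF1-BAR in red, circles for replicate 1 and triangles for replicate 2. CD4 dropped from 26.6 and 25.8 FPKM to 1.05 and 1.19 FPKM, while both lines stayed near each other for the genes on either side, and the LAG3 points of both lines overlapped.

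None of the 8 neighbours tested passed both thresholds, a log2 fold change of at least 1 in either direction and an adjusted p under 0.05 in limma with Benjamini-Hochberg adjustment over all 15519 genes tested. Over all genes, 4.75% passed both, with 1.69% lower and 3.05% higher in TF1-BAR cells. Their log2 fold changes ran from -0.46 to 0.27, with a median of -0.09 beside a median of 0.07 over all genes, and 5 were below 0 and 3 above. The bounds of the 95% intervals for the 8 genes ran from -0.71 to 0.57. Each interval thus excluded a change of 1 in either direction on the scale of log2(FPKM + 0.5), which understates changes of low genes. COPS7A alone had an adjusted p under 0.05, which 26.9% of all genes had, 10.5% lower and 16.3% higher. At an unadjusted p under 0.05 there were 4 of the 8 neighbours, where 42.2% of all genes were. The groups did not overlap in any of the 8, as in 69.3% of all genes.

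LAG3, the closest relative of CD4 and the gene before it, was barely expressed in either line. It was at 0.0907 and 0.169 FPKM in TF1-BA cells, from 5 and 8 fragments. In TF1-BAR cells it was at 0.0415 and 0.265 FPKM, from 2 and 13 fragments. The lines overlapped, and in a fit with no filter on low values the log2 fold change was 0.03 (adjusted p = 0.947, limma). A difference in LAG3 was not detectable at this depth.

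PTMS, which encodes parathymosin, a small acidic nuclear protein, had the highest mean FPKM of the 10 genes in both lines. In TF1-BAR replicate 1 it was just below MLF2. It was at 36.9 and 37.4 FPKM in TF1-BA cells and at 32.3 and 36.7 FPKM in TF1-BAR cells. The log2 fold change was -0.11 (95% interval -0.32 to 0.10, adjusted p = 0.361), and the gap between its resistant libraries was larger than that between the nearest libraries of both lines. MLF2, a relative of the myeloid leukaemia factor MLF1 that overlaps PTMS, was at 35.1 and 33.9 FPKM against 32.6 and 33.0 FPKM. Its log2 fold change of -0.07 had an interval from -0.23 to 0.08 (adjusted p = 0.399). In TF1-BA cells, the CD4 level per length was 0.756 and 0.759 times that of MLF2, and in TF1-BAR cells it was 0.0323 and 0.0362 times.

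COPS7A, a subunit of the COP9 signalosome, which removes the ubiquitin-like protein NEDD8 from cullin ligases, was at 8.87 and 7.75 FPKM in TF1-BA cells. It was at 5.99 and 5.76 FPKM in TF1-BAR cells, so both resistant libraries were below both sensitive ones. The log2 fold change was -0.46 with a standard error of 0.0948 and an interval from -0.71 to -0.22 (adjusted p = 0.0271), short of the fold threshold. The adjusted p was 0.0758 with no filter on low values. It was 0.165 and 0.0886 without TF1-BA replicate 1 and 2, and 0.0642 and 0.0949 without TF1-BAR replicate 1 and 2.

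On the other side of CD4, 3 genes in a row had higher levels in both TF1-BAR libraries, none with an adjusted p under 0.05. GPR162, an orphan receptor of the G protein-coupled family and the gene right behind CD4, was at 1.85 and 2.20 FPKM in TF1-BA cells and at 2.62 and 2.44 FPKM in TF1-BAR cells (log2 fold change 0.27, interval -0.04 to 0.57, adjusted p = 0.164). P3H3, of the family that hydroxylates prolines of collagen in the endoplasmic reticulum, was at 4.05 and 3.98 FPKM against 4.94 and 4.72 FPKM (0.24, interval 0.03 to 0.45, adjusted p = 0.0915). GNB3, a beta subunit of heterotrimeric G proteins, was at 1.23 and 1.15 FPKM against 1.5 and 1.45 FPKM (0.23, interval -0.10 to 0.55, adjusted p = 0.240). GPR162 was thus lower than CD4 in both TF1-BA libraries, where CD4 was 14.4 and 11.7 times its level. In TF1-BAR cells the order was turned, with CD4 at 0.402 and 0.490 times the GPR162 level.

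The last pair, CDCA3 and USP5, had lower levels in both TF1-BAR libraries. CDCA3, which takes part in the destruction of WEE1 before mitosis, was at 8.12 and 7.00 FPKM in TF1-BA cells and at 6.15 and 6.01 FPKM in TF1-BAR cells. Its log2 fold change was -0.29 (interval -0.54 to -0.04, adjusted p = 0.0871). USP5, a deubiquitinase that takes apart free ubiquitin chains, was at 14.8 and 13.8 FPKM against 12.5 and 11.8 FPKM (-0.22, interval -0.42 to -0.03, adjusted p = 0.0913). In limma voom, run on whole fragments recovered from the FPKM and chosen after seeing the data, 2 of the 8 neighbours had an adjusted p under 0.05, COPS7A at 0.00498 and CDCA3 at 0.0317. In the same fit 37.7% of all genes had such a p and 7.44% passed both thresholds, with 0 of the 8 neighbours among these.

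**Figure D2:**
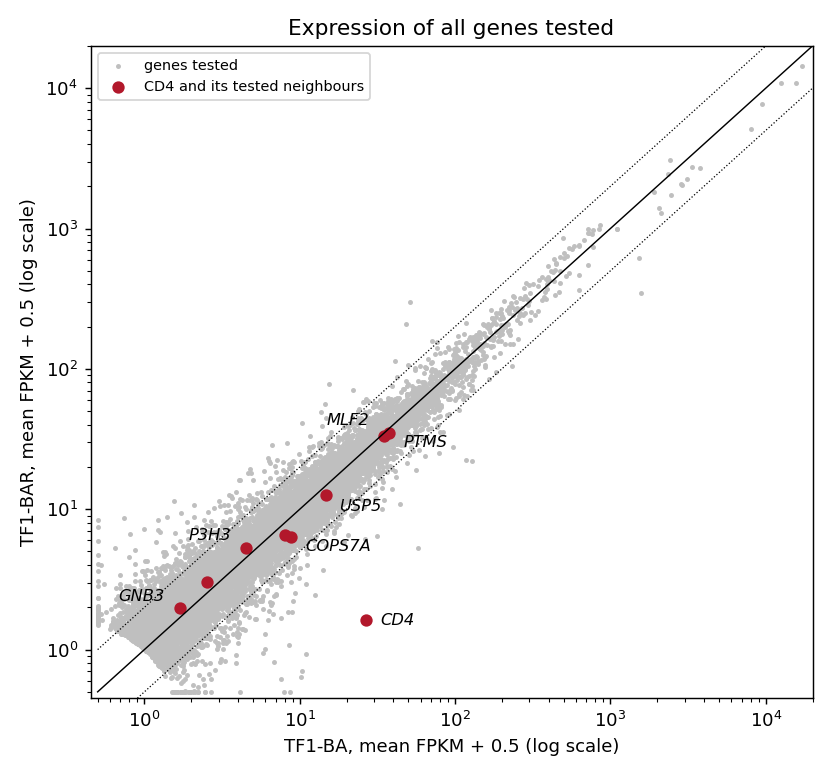
Mean FPKM + 0.5 of 15519 tested genes in TF1-BA cells (x axis, log scale) and TF1-BAR cells (y axis, log scale), with the line of equal levels drawn solid and a 2-fold difference in either direction dotted. CD4 stands far below the dotted lines at 26.2 and 1.12 FPKM, while its 8 tested neighbours, in red, lie between them.

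The comparison was then widened to every gene whose position comes within 500 kb of CD4, 64 genes of the table of which 44 were tested. Besides CD4, ACSM4 was lower and ACRBP and RNU6-781P were higher past both thresholds. ACSM4 and RNU6-781P passed the filter on low values only through the line where they were high, so they had to differ and their calls carry no weight. Without CD4 the median log2 fold change was -0.09 over the 8 other genes tested within 50 kb, 0.18 within 100 kb and 0.15 within 500 kb, while it was 0.08 over chromosome 12 and 0.07 over all genes. The lowest value within 50 kb besides CD4 was -0.40, for TPI1. On chromosome 12 as a whole, 11 genes were lower and 25 higher past both thresholds of 780 tested, beside 1.69% lower and 3.05% higher of all genes.

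ACRBP, which binds the sperm protease precursor proacrosin and lies 139 kb before CD4, rose from 1.70 and 1.52 to 3.97 and 4.84 FPKM. Its log2 fold change was 1.21 (interval 0.88 to 1.54, adjusted p = 0.00724), and without TF1-BA replicate 2 the adjusted p was 0.0523. RNU6-781P, a U6 small nuclear RNA copy at 77.3 kb, was at 0 in TF1-BA cells and at 0.628 and 1.85 FPKM in TF1-BAR cells (log2 fold change 1.70, adjusted p = 0.0359), but from only 1 and 3 fragments, at or under the floor of 3 taken as detected. Without TF1-BA replicate 1 or 2 its adjusted p was 0.124 and 0.123, and without TF1-BAR replicate 2 it fell below the filter. ACSM4, of the medium-chain acyl-CoA synthetase family and 483 kb behind CD4, was at 0.940 and 0.757 against 0.102 and 0.201 FPKM (log2 fold change -1.05, adjusted p = 0.0296), from 42 and 29 to 4 and 8 fragments. Its adjusted p was 0.0678 and 0.0672 without TF1-BAR replicate 1 and 2, and it was below the filter without either TF1-BA library.

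Of the genes within 500 kb other than CD4, ACSM4 and RNU6-781P, COPS7A and TPI1 were lower and 5 genes, ACRBP among them, were higher with an adjusted p under 0.05. Of all genes, 10.5% were lower and 16.3% higher. TPI1, the triosephosphate isomerase of glycolysis and the gene behind USP5, was at 94.9 and 91.3 FPKM in TF1-BA cells and at 77.5 and 63.8 FPKM in TF1-BAR cells (log2 fold change -0.40, adjusted p = 0.0474). Among the others that were higher, LPAR5, a receptor for lysophosphatidic acid, had a log2 fold change of 0.69 (adjusted p = 0.0251) and ATN1, a transcriptional corepressor, of 0.55 (adjusted p = 0.0160). C1RL, a protease related to complement C1r, followed with 0.52 (adjusted p = 0.0198) and C12orf57 with 0.49 (adjusted p = 0.0434). Each of these 5 genes was at an adjusted p of 0.05 or above without either TF1-BA library, the highest being 0.208 for TPI1, 0.108 for LPAR5, 0.103 for ATN1, 0.128 for C1RL and 0.195 for C12orf57. This also held for LPAR5 and C12orf57 without either TF1-BAR library, and for TPI1 and C1RL without TF1-BAR replicate 2.

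**Figure D3:**
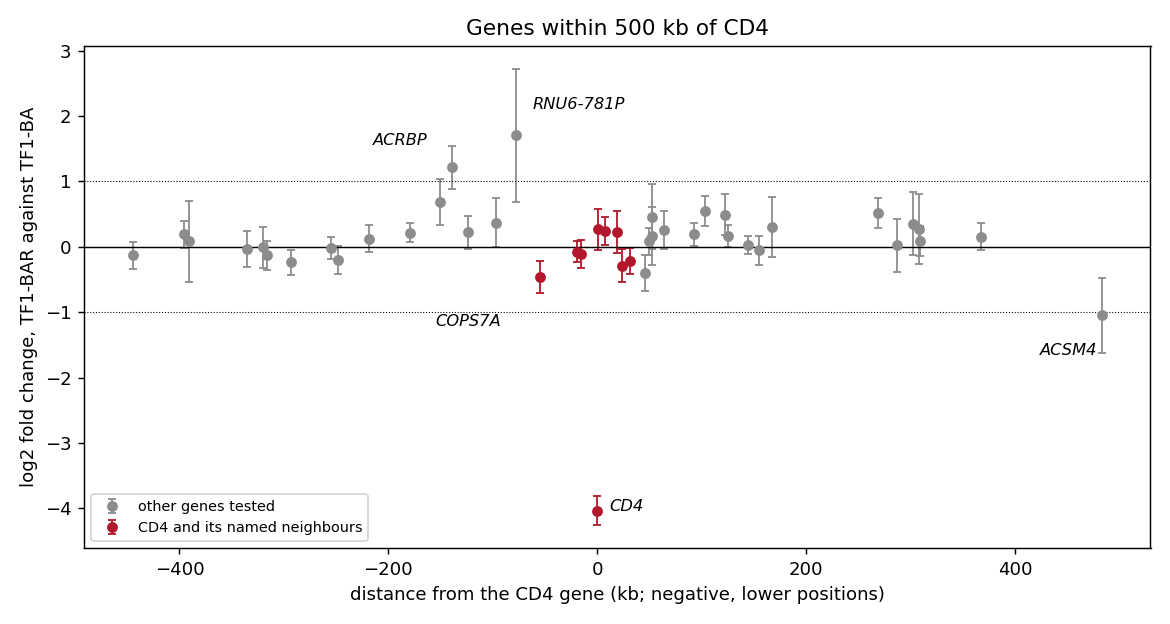
Log2 fold change of TF1-BAR against TF1-BA cells (y axis, bars 95% intervals) for the 44 tested genes within 500 kb of CD4, by distance from the CD4 gene (x axis, kb), with CD4 and its named neighbours in red and a change of 1 in either direction dotted. CD4 lies at -4.04 and every other gene tested in the window between -1.05 and 1.70.

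The 5 genes whose pattern over the 4 libraries was most like that of CD4, by Euclidean distance of centred log2(FPKM + 0.5), were HBB, AC108517.1, PAGE1, HBE1 and SERPINB9, at distances of 0.0975 to 0.461. HBB encodes the beta chain of adult haemoglobin and HBE1 the epsilon chain of embryonic haemoglobin. HBB was at 9.40 and 10.0 FPKM in TF1-BA cells and at 0.108 and 0.158 FPKM in TF1-BAR cells, from 2 and 3 fragments in the resistant line. PAGE1, a cancer-testis antigen gene on chromosome X, went from 7.92 and 7.00 FPKM to 0 in both resistant libraries. SERPINB9, an inhibitor of granzyme B on chromosome 6, was at 7.07 and 7.03 against 0.139 and 0.106 FPKM. None of these 5 is on chromosome 12, and CD4 had the highest level of them in both lines. The likeness depends on the 0.5 FPKM added, which shrinks the falls of these lower genes. In limma voom their log2 fold changes ran from -5.43 to -7.31, against -4.53 for CD4. As genes picked for their likeness in the same 4 libraries, the 5 are given as a description.

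Transcription factors and chromatin proteins known to act on CD4 in T cells were mostly expressed in both lines, and none passed both thresholds. Of 19 such genes, 17 were tested, and 2 had a lower and 3 a higher level in TF1-BAR cells with an adjusted p under 0.05, where 10.5% of all genes were lower and 16.3% higher. Their median log2 fold change was 0.21. Of all listed genes named from here on with an adjusted p under 0.05, ETS1, CD3D, CD34 and KIT kept it with any 1 library left out, and each other lost it without either TF1-BA library, with the highest such p given beside it. ETS1, an Ets family factor, was at 27.6 ± 0.813 FPKM in TF1-BA and 49.5 ± 3.0 FPKM in TF1-BAR cells (SD, n = 2), a log2 fold change of 0.83 (interval 0.65 to 1.02, adjusted p = 0.00561). The adjusted p of ETS1 stayed between 0.0246 and 0.0496 with any library left out. RUNX1, of the factors that bind the CD4 silencer, was higher by 0.48 (adjusted p = 0.0129) and LEF1, a partner of beta-catenin, by 0.44 (adjusted p = 0.0334). These p-values were 0.107 without TF1-BA replicate 2 for RUNX1 and 0.186 without TF1-BA replicate 1 for LEF1.

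GATA3, which directs thymocytes to the CD4 lineage, was lower, at 3.97 ± 0.217 against 2.12 ± 0.490 FPKM (SD, n = 2; log2 fold change -0.78, adjusted p = 0.0253, 0.128 without TF1-BA replicate 1). SMARCA4, the ATPase of the BAF remodelling complex, had a log2 fold change of -0.25 (adjusted p = 0.0495, 0.293 without TF1-BA replicate 1). ZBTB7B, the ThPOK factor that keeps CD4 on in helper T cells, was at 9.30 ± 1.31 and 9.10 ± 0.906 FPKM, with a log2 fold change of -0.03 (adjusted p = 0.896). MYB, which binds regulatory DNA of CD4, had a log2 fold change of 0.28 (adjusted p = 0.0944), RUNX3 of 0.37 (adjusted p = 0.0877) and CHD4 of 0.21 (adjusted p = 0.0503). The part of any of these genes in the CD4 level was not tested.

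**Figure D4:**
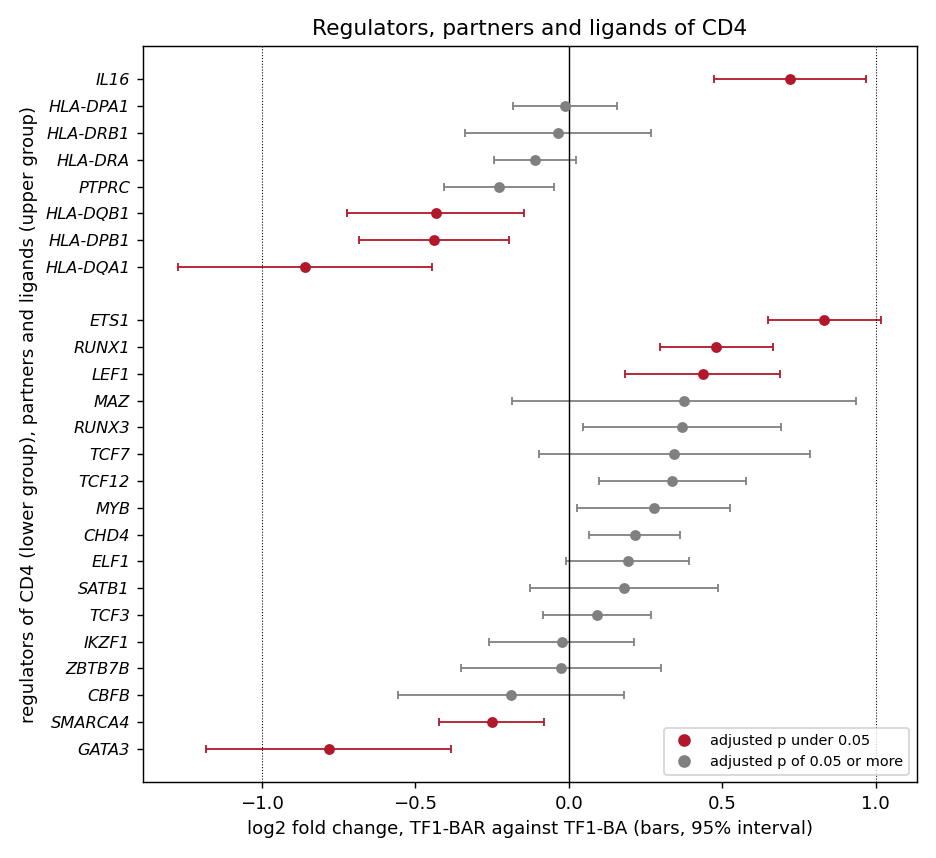
Log2 fold change of TF1-BAR against TF1-BA cells (x axis, bars 95% intervals) for the tested regulators of CD4 (lower group) and its partners and ligands (upper group), red where the adjusted p was under 0.05. The values lie between -0.86 for HLA-DQA1 and 0.83 for ETS1, within the dotted lines at 1 in either direction.

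The binding partners of the CD4 protein were examined in the same way. Of 11 genes for signalling partners, ligands and co-receptors of the virus, 8 were tested, none passed both thresholds, and 3 were lower and 1 higher with an adjusted p under 0.05, beside the same 10.5% and 16.3% of all genes. Their median log2 fold change was -0.17. LCK, the kinase that CD4 carries, had 0 or 1 fragment in every library, and the viral co-receptor gene CXCR4 likewise. IL16, a cytokine that binds CD4, was higher, at 4.74 ± 0.144 against 8.15 ± 0.776 FPKM (SD, n = 2; log2 fold change 0.72, adjusted p = 0.0110, 0.0790 without TF1-BA replicate 2).

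Class II molecules are the ligands of CD4 and LAG3. HLA-DRA, the alpha chain of HLA-DR, was at 380 ± 3.20 FPKM in TF1-BA cells and at 352 ± 8.57 FPKM in TF1-BAR cells (SD, n = 2; log2 fold change -0.11, adjusted p = 0.173). HLA-DQA1 had a log2 fold change of -0.86 (adjusted p = 0.0223), HLA-DPB1 of -0.44 (adjusted p = 0.0307) and HLA-DQB1 of -0.43 (adjusted p = 0.0465). Without TF1-BA replicate 2 these were at 0.119, 0.174 and 0.223. The other class II genes of the list, HLA-DRB1 and HLA-DPA1, had log2 fold changes of -0.04 (adjusted p = 0.842, limma) and -0.01 (adjusted p = 0.900, limma). The HLA genes are alike in sequence and differ between people, so their levels depend on how reads were assigned. LGALS3, another ligand of LAG3, was lower by 0.74 on the log2 scale (adjusted p = 0.0458, 0.204 without TF1-BA replicate 1).

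The complexes and families of the neighbours were read beside the 26.9% of all genes with an adjusted p under 0.05. Of the 10 COP9 signalosome subunits, all tested, COPS7A alone had an adjusted p under 0.05, and its alternative subunit COPS7B was at 8.07 ± 0.124 and 8.44 ± 0.461 FPKM (log2 fold change 0.06, adjusted p = 0.600). The median of the 10 was 0.02. Of the 5 G protein beta subunits, GNB5 was higher by 0.39 (adjusted p = 0.0384, 0.196 without TF1-BA replicate 2) and the median was 0.15. In the prolyl 3-hydroxylase family of 5, the median was 0.39 and 2 were higher with an adjusted p under 0.05. These were CRTAP, at 0.41 (adjusted p = 0.0247), and P3H4, at 0.39 (adjusted p = 0.0223), both partners of the enzymes rather than enzymes, and without TF1-BA replicate 1 they were at 0.143 and 0.148.

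Among the closest paralogues of USP5, MLF2, PTMS and GPR162, 2 of 4 were lower with an adjusted p under 0.05, beside 10.5% of all genes, and the median was -0.51. Past both thresholds 1.69% of all genes were lower. GPR153, the relative of GPR162, fell past both thresholds, from 3.25 ± 0.0847 to 1.28 ± 0.254 FPKM (SD, n = 2; log2 fold change -1.08, adjusted p = 0.0102, 0.0701 without TF1-BA replicate 2). MLF1, the relative of MLF2, was lower by 0.82 (adjusted p = 0.00908, 0.0692 without TF1-BA replicate 1). The neighbours GPR162 and MLF2 had no such difference, at 0.27 and -0.07.

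The levels of cell type markers were read beside those of CD4, since T cells and monocytes also carry it. Of 9 T cell markers in the table, CD3E, CD3G, CD2 and CD8B had 0 to 3 fragments in every library, and 8 of the 9 were below the filter. CD247 had 16 to 38 fragments and CD8A had 9 to 24. CD3D alone passed the filter, at 19.9 ± 1.03 FPKM in TF1-BA cells, and it fell to 6.05 ± 0.442 FPKM in TF1-BAR cells (SD, n = 2; log2 fold change -1.64, interval -1.87 to -1.42, adjusted p = 0.00282). The summed FPKM of the 9 markers was 19.96 and 21.5 in TF1-BA cells and 6.49 and 7.58 in TF1-BAR cells, nearly all of it CD3D.

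Of 8 monocyte and macrophage markers in the table, CD14 had 0 to 2 fragments and CD163 had 0 or 1, and 3 were tested. CSF1R, the receptor of macrophage colony-stimulating factor, was at 0.271 ± 0.0786 against 1.33 ± 0.0185 FPKM (SD, n = 2; log2 fold change 1.25, adjusted p = 0.0124, 0.0658 without TF1-BA replicate 1). It passed the filter only through its level in TF1-BAR cells, so it had to differ. ITGAM, an integrin of myeloid cells, was higher by 0.85 (adjusted p = 0.0114, 0.0729 without TF1-BA replicate 1), and lysozyme, LYZ, had a log2 fold change of 0.16 (adjusted p = 0.209). The summed level of these 8 markers was 45.1 and 44.9 FPKM in TF1-BA and 67.1 and 78.0 FPKM in TF1-BAR cells, in the opposite direction to CD4, and most of that difference was ITGAM, at 29.8 ± 0.741 and 54.3 ± 8.37 FPKM (SD, n = 2). All 11 markers of the TF1 line were expressed, among them GATA1 at 75.1 ± 0.503 and 68.2 ± 3.35 FPKM (SD, n = 2), and the median log2 fold change of the 11 was 0.22. Of these, CD34 and KIT rose past both thresholds, by 1.17 and 1.12 on the log2 scale (adjusted p = 0.00409 for both), where 3.05% of all genes did. TAL1, a factor of early blood cells, was higher by 0.76 (adjusted p = 0.00976, 0.0685 without TF1-BA replicate 2). Others had values below 0, among them HBG2, which is nearly identical to HBG1 and hard to count apart from it, at -0.41 (adjusted p = 0.0601), KLF1 at -0.34 (adjusted p = 0.0519) and CSF2RA at -0.19 (adjusted p = 0.155).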

How the data were processed

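Total RNA of 4 libraries was extracted with TRIzol, prepared with the NEBNext Ultra kit and sequenced as 150-bp paired-end reads. The submitters' processing notes name TopHat2 2.0.13, Cufflinks 2.2.0, Cuffdiff 2.2.0 and GRCh38, the annotation release is not given in the sources used here, and the authors tested differences with DESeq2. The values deposited by the authors are FPKM for 32673 genes in each library. Columns were matched to samples by title, and the members and gene lists were chosen with earlier results of these data known.

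FPKM were tested in limma 3.58.1 (R 4.3.3, lmFit and eBayes with trend) as log2(FPKM + 0.5) for the 15519 genes with a mean of at least 0.5, with no covariate, and the script was tested on simulated data first. Named genes were the members, genes within 500 kb, gene lists by counts, and the 5 genes nearest to CD4. With 2 libraries against 2, the smallest exact two-sided permutation p for a single value is 0.333. Library sizes and whole fragments were recovered by finding the sizes at which FPKM become whole numbers. Of 30853 genes above 0, 14306 were whole within 0.002 at the GENCODE 44 exon length, and 0 of 300 of these at wrong sizes. The other 16547 were whole at a length fitted over a wide range. They were not tried at wrong sizes, so their being whole is no check of their fragment numbers. At fitted lengths multiples of the fragment number are whole too, so the lowest was taken for all but genes with few fragments. For those the fitted length nearest the GENCODE 44 length was taken, where there was one. Fragment numbers cover counting error only. FGL1, CD28, CD68, MPEG1 and FCN1, which were in the lists, were not analysed here. Alternatives changed the pseudocount, the filter, the scaling, the variance model, the replicate block or the window, or left out a library, and limma voom was run on the recovered fragments after the data were seen.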

Additional observations from a re-analysis of the deposited data

How the results depend on the processing

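No neighbour of CD4 passed both thresholds under any alternative. With the fold threshold dropped and only the adjusted p kept, COPS7A made the count 1. Of 120 values of the 8 neighbours under the alternatives, 113 kept their side of the threshold and their direction, 5 lost and 2 gained an adjusted p under 0.05, and 0 turned direction. The number of neighbours with such a p, 1 in the report, was 0 with no filter on low values, 2 after rescaling FPKM to TPM, 2 in limma voom and 0 without any 1 library. Of the 594 values of 40 other named genes, 462 were unchanged in call, 114 were weaker and 15 stronger, and 3 turned direction, all ZBTB7B, at 0.041 after rescaling to TPM, 0.11 without TF1-BA replicate 2 and 0.071 without TF1-BAR replicate 1, in a range of -0.16 to 0.11 without 1 library. The CD4 log2 fold change was -3.68 with a pseudocount of 1 FPKM, -4.43 with 0.1 FPKM, -4.31 after rescaling to TPM, -4.53 in limma voom and between -4.10 and -3.98 without 1 library. The number of genes past both thresholds, 737, was 487 with a pseudocount of 1 FPKM, 1154 in limma voom and 429 to 794 without 1 library, and 4167 had an adjusted p under 0.05. Within 500 kb, 4 genes passed, of which CD4 was chosen by its fall and ACSM4 and RNU6-781P passed the filter only through the line where they were high, leaving ACRBP. The count was 2 with a minimum mean of 1 FPKM or with no filter, 1 to 3 without 1 library and 10 with no fold threshold. Quantile normalization turned the split of calls from 64.3% higher (474 of 737) to 51.5% (359 of 697).

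A fit with replicate number as a block called 755 genes and 0 neighbours. The replicate numbers share only a number here, since there are 2 pairs and the same-numbered libraries deviated together with a correlation of only 0.0646 over 15519 genes. Depth limits LAG3, at 2 to 13 fragments, and ACSM4 and RNU6-781P in the window. Settings with limma voom were chosen after seeing the data.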
